A study of Homo sapiens with 22 samples.

Results

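The 10 genes described here are transcription factors and marker genes of the epithelial to mesenchymal transition: TWIST1, TWIST2, SNAI1, SNAI2, ZEB1, ZEB2, CDH1, CDH2, VIM and FN1. They were taken by name from a table of 48162 gene IDs, and all 10 were in it and passed the filter on low counts. The set was selected on measured counts of TWIST2, which had 0 counts in WT and VPR cells and was detected in VPRP sgHBB, p300 and p300 D1399Y, so the TWIST2 pattern is given as a description, without a test. The counts come from HEK293, a human embryonic kidney line, sequenced by RNA-seq.

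In 5 of the 6 groups the cells expressed a dCas9 fusion, in which a Cas9 that has lost its cutting activity carries an effector protein to the DNA that a guide RNA matches. VPRP sgHBB cells carried VPR joined to p300 with a guide against the beta-globin gene HBB, and VPRP non-target cells carried the same fusion with a guide that has no target. VPR sgHBB cells carried VPR, a set of activation domains, p300 sgHBB cells carried the acetyltransferase p300, and p300 D1399Y sgHBB cells carried a p300 whose catalysis is impaired by a substitution. WT cells had a guide, not named in the labels, and no fusion. Each group had 2 libraries, called biological replicates by the series, from cells given doxycycline for 48 hours and sorted, WT for the BFP marker alone and the others for GFP and BFP. Whether the lines were clones is not given in the sources used here, so p-values may measure the spread between cultures of 1 line.

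In an epithelial to mesenchymal transition, cells lose the adhesion of an epithelial sheet and take on the shape and motility of mesenchymal cells. TWIST, SNAI and ZEB proteins bind E-box sequences in DNA and repress epithelial genes, of which CDH1, encoding E-cadherin, is the best known. N-cadherin (CDH2), vimentin (VIM) and fibronectin (FN1) are the markers commonly read as the mesenchymal side. HEK293 cells are adherent cells that express N-cadherin and vimentin.

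Libraries held 14894558 to 17479523 counts, and 16694 genes were tested. HBB was counted at 65.8 to 1732 CPM (counts scaled to a common library size) in the 8 libraries with the HBB guide and a fusion, and at 0 in VPRP non-target and WT. EP300 reads, which may mix endogenous and construct transcripts, stood at 351 and 398 CPM in VPRP sgHBB, 1165 and 1179 in VPRP non-target, 1116 and 1132 in p300, 195 and 194 in p300 D1399Y, 111 and 86.3 in VPR, and 110 and 103 in WT. MAGEA10, a cancer-testis antigen gene, divided the groups in another way: it had 0 to 4 counts per library in VPRP sgHBB, p300 and p300 D1399Y, against 139 to 578 in VPRP non-target, VPR and WT. The labels give no line or batch that matches this division, and its part in the results below was not tested.

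Promoter sequences from RefSeq (GRCh38.p14, 250 bases before to 50 after an annotated start) were matched for 6 of the 10 genes, with 13 entries in all. Those shown are TWIST2, because it was counted at 0 in some groups and not in others, and ZEB2, VIM and FN1, which fell in the 3 groups with active p300 and have 1 entry each. VIM and FN1 also fell in VPR and p300 D1399Y. CDH2, which fell in the 3 groups with active p300 and in p300 D1399Y, has 2 entries and is given by its counts. Capitals mark CG dinucleotides, and each sequence is written 5′ to 3′ on the gene's strand.
TWIST2, chr2:238847835-238848134, plus strand: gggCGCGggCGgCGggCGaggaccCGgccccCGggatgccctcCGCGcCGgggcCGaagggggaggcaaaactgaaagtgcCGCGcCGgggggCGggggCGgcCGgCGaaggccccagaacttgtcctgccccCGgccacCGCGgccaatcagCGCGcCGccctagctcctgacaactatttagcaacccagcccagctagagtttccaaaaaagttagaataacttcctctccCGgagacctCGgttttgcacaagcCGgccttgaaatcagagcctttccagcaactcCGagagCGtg
ZEB2, chr2:144520070-144520369, minus strand: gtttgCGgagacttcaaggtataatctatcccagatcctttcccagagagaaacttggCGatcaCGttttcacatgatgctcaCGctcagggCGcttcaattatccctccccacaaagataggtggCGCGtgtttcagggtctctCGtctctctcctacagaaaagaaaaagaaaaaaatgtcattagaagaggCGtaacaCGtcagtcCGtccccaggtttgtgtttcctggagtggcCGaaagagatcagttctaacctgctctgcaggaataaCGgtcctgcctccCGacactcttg
VIM, chr10:17227991-17228290, plus strand: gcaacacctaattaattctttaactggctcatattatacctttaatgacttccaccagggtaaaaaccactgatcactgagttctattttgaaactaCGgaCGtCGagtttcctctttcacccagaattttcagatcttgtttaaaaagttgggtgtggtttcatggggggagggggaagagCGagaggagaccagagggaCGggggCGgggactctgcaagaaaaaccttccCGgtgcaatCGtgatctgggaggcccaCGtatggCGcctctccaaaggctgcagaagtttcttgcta
FN1, chr2:215436019-215436318, minus strand: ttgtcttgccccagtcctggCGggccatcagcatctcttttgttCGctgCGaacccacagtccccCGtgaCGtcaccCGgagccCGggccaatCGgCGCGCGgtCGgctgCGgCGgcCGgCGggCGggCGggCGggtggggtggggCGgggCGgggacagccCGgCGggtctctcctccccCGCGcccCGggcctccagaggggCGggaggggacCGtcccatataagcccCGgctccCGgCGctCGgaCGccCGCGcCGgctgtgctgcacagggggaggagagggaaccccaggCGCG
The TWIST2 window held 29 CG dinucleotides and 66.7% G and C, the ZEB2 window 14 and 49.0%, the VIM window 10 and 48.0%, and the FN1 window 38 and 76.7%. The CDH2 windows held 23 CG dinucleotides in one and 4 in the other, so the genes that fell ranged from few to many CG dinucleotides. Over 35116 promoters of the same length the medians were 14 CG dinucleotides and 58.7% G and C. The E-box CANNTG, which reads the same on both strands, was found 1 time in the ZEB2 window and in none of the other windows printed, while 68.7% of all promoters held it. CAGGTG or CACCTG, the forms bound by SNAI and ZEB proteins, was in none of the 4 windows printed and in 20.6% of all promoters. Among the ZEB1 windows, which were not printed, it was found 1 time in chr10:31318167-31318466 and 3 times in chr10:31318966-31319265. The starts used in these cells were not analysed here.

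Across the 9 genes other than TWIST2, the direction against WT was mixed by role. CDH1, the epithelial cadherin, rose with every fusion, while SNAI2, VIM and FN1 fell with every fusion. SNAI1 rose, and TWIST1 and ZEB2 fell, in the 3 groups with active p300 (VPRP with either guide, and p300). TWIST1 in p300 D1399Y was also below WT (log2 -0.33), without a call. Between p300 and p300 D1399Y, TWIST1 was not called (log2 -0.16), so its fall cannot be tied to active p300. Against WT, 2 of the 9 were higher and 6 lower in VPRP sgHBB, where 59.1% of all tested genes were called at an adjusted p under 0.05 (31.1% higher and 28% lower). In VPRP non-target 2 were higher and 7 lower (59.7% of all genes called, 31.2% higher and 28.5% lower). In VPR 1 was higher and 3 lower (25.3%, 13.8% higher and 11.5% lower), in p300 2 and 6 (46.1%, 24.5% higher and 21.6% lower), and in p300 D1399Y 1 and 4 (30.2%, 15.7% higher and 14.5% lower). The median log2 fold change of the 9 genes was -0.71, -0.84, -0.16, -0.53 and -0.30 in that order of groups, beside 0.04, 0.04, 0.02, 0.03 and 0.00 over all tested genes. These 5 comparisons share the WT libraries, and those of VPRP sgHBB, p300 and p300 D1399Y cross the MAGEA10 division. In all 5 the fusion cannot be told apart from the sort, or from the guide of WT, which is not named. RNA came from bulk cells, in which fewer cells of a type and less RNA per cell cannot be told apart.

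**Figure D1:**
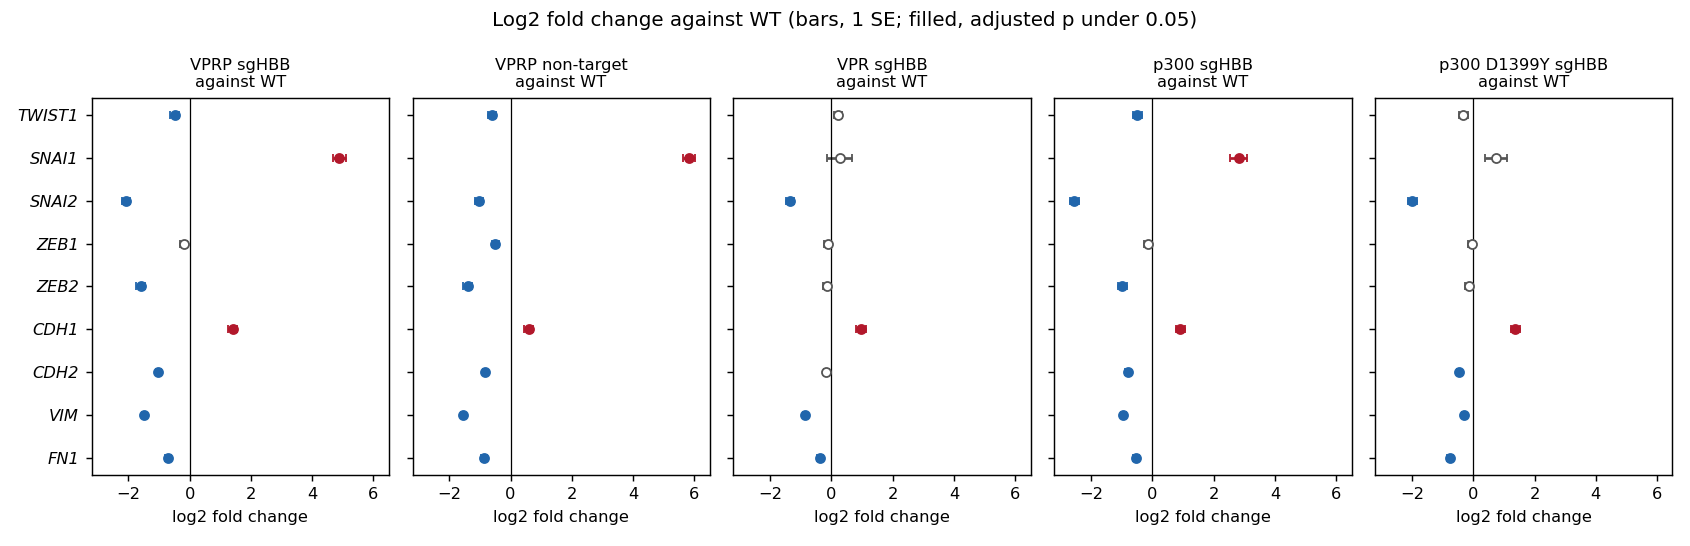
Log2 fold change of the 9 tested genes in each fusion group against WT, with bars of 1 SE. Filled red points were called higher and filled blue points lower at an adjusted p under 0.05, open points were not called; SNAI1 stands far to the right in both VPRP groups, at 4.89 and 5.83, and VIM lies left of 0 in all 5 panels.

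TWIST2 (ENSG00000233608) encodes a basic helix-loop-helix factor that represses genes in mesenchymal precursors. It had 63 and 53 counts in VPRP sgHBB, 59 and 75 in p300, 73 and 64 in p300 D1399Y, 1 and 0 in VPRP non-target, and 0 in both libraries of VPR and of WT. In CPM the groups with reads stood at 4.11 and 2.93 (VPRP sgHBB), 3.61 and 4.42 (p300) and 4.22 and 4.43 (p300 D1399Y). The p300 range overlapped with both others, and both VPRP sgHBB libraries lay below both p300 D1399Y libraries. The 0 in WT allows up to 0.0989 CPM over the group. Set against that floor, the level over the group was 35.1-fold higher in VPRP sgHBB, 40.7-fold in p300 and 43.6-fold in p300 D1399Y. These lower limits take the reads of the fusion group as exact, and they describe values that the selection used. With 1 WT library left out the floor is wider, and the lower limits were 17.4 to 18.1, 19.9 to 20.7 and 21.4 to 22.3. Against VPRP non-target, with 1 count in all, the VPRP sgHBB ratio was 120 with an exact 95% binomial interval of 21.1 to 4770 that covers counting error only.

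TWIST2 reads did not follow EP300 reads. VPRP non-target, with 1165 and 1179 CPM of EP300, had 1 and 0 TWIST2 counts, while p300 D1399Y, with 195 and 194 CPM of EP300, had 73 and 64. The 6 libraries with TWIST2 at 2.93 CPM or more were the same 6 in which MAGEA10 was at 0 to 0.261 CPM. In the other 6 libraries, TWIST2 stood at 0 to 0.0607 CPM and MAGEA10 at 9.34 to 32.1. No library was intermediate for either gene. Both genes were chosen with their pattern over the groups known, so this match is a description and not independent support.

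TWIST1 (ENSG00000122691), the close paralog of TWIST2 that drives cranial mesoderm development, was counted in every library. It had 15.0 and 13.9 CPM in VPRP sgHBB, 15.3 and 11.3 in VPRP non-target, 21.3 and 25.7 in VPR, 13.3 and 15.4 in p300, 17.7 and 14.3 in p300 D1399Y, and 19.8 and 20.5 in WT. VPR was the highest group and WT the next, and the other 4 overlapped as neighbours in the order. By the quasi-likelihood test of edgeR, adjusted by the Benjamini-Hochberg method as for every adjusted p here, TWIST1 was 1.40-fold lower than WT in VPRP sgHBB (log2 -0.48, SE 0.143, adjusted p = 0.00431) and 1.52-fold lower in VPRP non-target (log2 -0.60, adjusted p = 0.000512). It was 1.40-fold lower in p300 (adjusted p = 0.00523), a call lost without p300 replicate 1 (adjusted p = 0.0824, range over all alternatives 0.000968 to 0.0824). In p300 D1399Y the log2 value was -0.33 (adjusted p = 0.079) and in VPR 0.22 (adjusted p = 0.255). TWIST1 and TWIST2 thus differed in pattern: TWIST1 had 295 and 317 counts in the WT libraries in which TWIST2 had none.

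SNAI1 (ENSG00000124216), encoding Snail, a zinc finger repressor of CDH1, showed the largest differences from WT of the 9 tested genes in the 3 groups with active p300. It had 26.2 and 21.2 CPM in VPRP sgHBB, 44.6 and 46.2 in VPRP non-target, 0.823 and 1.09 in VPR, 5.26 and 5.95 in p300, 1.16 and 1.52 in p300 D1399Y, and 0.941 and 0.647 in WT. The 4 upper groups of this order (VPRP non-target, VPRP sgHBB, p300, p300 D1399Y) did not overlap with the next, while VPR and WT overlapped. SNAI1 was 29.6-fold higher than WT in VPRP sgHBB (log2 4.89, SE 0.221, adjusted p = 2.29e-19), 56.8-fold in VPRP non-target (log2 5.83, SE 0.208, adjusted p = 2.93e-22) and 7.03-fold in p300 (log2 2.81, SE 0.273, adjusted p = 2.29e-10). In p300 D1399Y (log2 0.74, SE 0.367, adjusted p = 0.131) and VPR (log2 0.27, SE 0.399, adjusted p = 0.674) the difference did not pass the test. The WT libraries held 14 and 10 SNAI1 counts, so its level there rests on few reads.

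SNAI1 and EP300 were alike in some ranks across groups and unlike in others, and a relation between them was not tested. Both were highest in VPRP non-target, and both were lower in p300 D1399Y, VPR and WT than in the groups with active p300. EP300 stood at 1165 and 1179 CPM in VPRP non-target and at 1116 and 1132 in p300, where SNAI1 was at 44.6 and 46.2 and at 5.26 and 5.95 CPM. VPRP sgHBB had less EP300 than p300, 351 and 398 CPM, and more SNAI1. How much fusion protein the cells held was not analysed here.

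SNAI2 (ENSG00000019549), encoding Slug, the relative of Snail prominent in neural crest, moved the other way. It had 8.68 and 9.0 CPM in VPRP sgHBB, 17.3 and 19.1 in VPRP non-target, 16.0 and 13.1 in VPR, 7.16 and 5.54 in p300, 8.38 and 10.4 in p300 D1399Y, and 38.2 and 36.2 in WT. Every fusion library was below both WT libraries. SNAI2 was 4.21-fold lower than WT in VPRP sgHBB (log2 -2.07, SE 0.140, adjusted p = 9.76e-15), 2.05-fold in VPRP non-target (log2 -1.03, adjusted p = 1.7e-08), 2.55-fold in VPR (log2 -1.35, adjusted p = 2.52e-09), 5.87-fold in p300 (log2 -2.55, adjusted p = 6.04e-16) and 3.99-fold in p300 D1399Y (log2 -2.0, adjusted p = 1.98e-13). The 6 libraries with TWIST2 reads had 5.54 to 10.4 CPM of SNAI2, and the other 6 had 13.1 to 38.2 CPM, with no overlap. That grouping was made after the values were seen and was not tested.

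ZEB2 and ZEB1 encode zinc finger and homeobox repressors, and the pair differed. ZEB2 (ENSG00000169554) had 6.39 and 10.6 CPM in VPRP sgHBB, 9.29 and 10.4 in VPRP non-target, 23.2 and 23.5 in VPR, 14.1 and 12.1 in p300, 22.5 and 24.6 in p300 D1399Y, and 26.2 and 25.8 in WT. The groups with active p300 were at 6.39 to 14.1 CPM and the other 3 at 22.5 to 26.2 CPM, without overlap. ZEB2 was 3.03-fold lower than WT in VPRP sgHBB (log2 -1.6, SE 0.151, adjusted p = 4.52e-11), 2.63-fold in VPRP non-target (log2 -1.40, adjusted p = 5.92e-10) and 1.98-fold in p300 (log2 -0.99, adjusted p = 7.62e-07). The log2 value was -0.16 in VPR (adjusted p = 0.437) and -0.15 in p300 D1399Y (adjusted p = 0.457).

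ZEB1 (ENSG00000148516) stayed in a narrow range. It had 19.7 and 21.7 CPM in VPRP sgHBB, 17.4 and 16.2 in VPRP non-target, 21.7 and 21.6 in VPR, 21.5 and 21.0 in p300, 22.3 and 23.4 in p300 D1399Y, and 22.2 and 25.2 in WT. Only VPRP non-target passed the test against WT, 1.41-fold lower (log2 -0.50, SE 0.116, adjusted p = 0.000395). In the other 4 groups the log2 value lay between -0.06 and -0.19 with adjusted p of 0.143 or more. The strand setting of the counting is not given in the sources used here, so reads of ZEB1 and ZEB2 and of their antisense genes cannot be told apart.

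**Figure D2:**
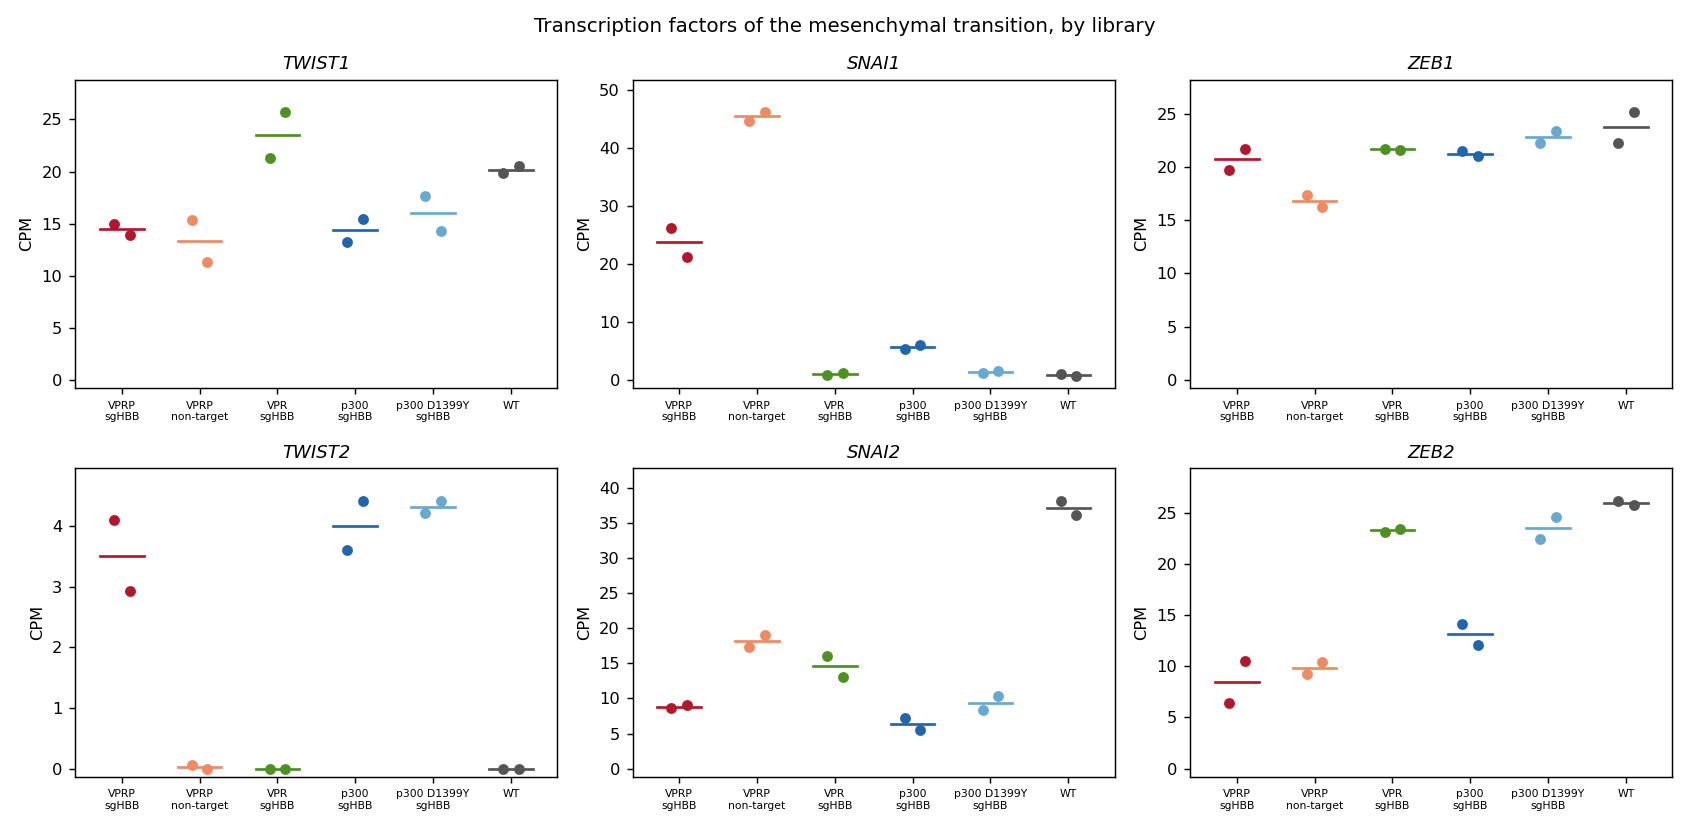
CPM of the 6 transcription factors in each of the 12 libraries (points) with the group mean (line), each panel on its own linear axis. TWIST2 is at 2.93 to 4.43 CPM in VPRP sgHBB, p300 and p300 D1399Y and at 0.0607 CPM or less elsewhere, SNAI1 peaks in VPRP non-target, and SNAI2 is highest in WT.

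The cadherins moved in opposite directions against WT. CDH1 (ENSG00000039068) had 17.2 and 17.8 CPM in VPRP sgHBB, 10.7 and 9.31 in VPRP non-target, 12.4 and 13.4 in VPR, 13 and 12.0 in p300, 17.3 and 16.9 in p300 D1399Y, and 6.12 and 7.12 in WT. All 10 fusion libraries were above both WT libraries. CDH1 was 2.64-fold higher than WT in VPRP sgHBB (log2 1.40, SE 0.149, adjusted p = 6.37e-10), 1.51-fold in VPRP non-target (log2 0.59, adjusted p = 0.00158), 1.95-fold in VPR (log2 0.96, adjusted p = 1.86e-05), 1.88-fold in p300 (log2 0.91, adjusted p = 8.98e-06) and 2.59-fold in p300 D1399Y (log2 1.37, adjusted p = 7.09e-09). VPRP sgHBB and p300 D1399Y overlapped at the top, and VPR overlapped with p300 below them. CDH1 was at its highest with VPRP sgHBB, where SNAI1 was 29.6-fold higher than in WT, and nearly as high with p300 D1399Y, where SNAI1 was not called. Of the fusion groups, VPRP non-target had the lowest CDH1, at 10.7 and 9.31 CPM, and the highest SNAI1, at 44.6 and 46.2 CPM. A relation between SNAI1 and CDH1 was not tested.

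CDH2 (ENSG00000170558) had 66.2 and 69.5 CPM in VPRP sgHBB, 76.6 and 77.7 in VPRP non-target, 126 and 119 in VPR, 78.8 and 78.0 in p300, 97.9 and 101 in p300 D1399Y, and 142 and 133 in WT. No 2 neighbouring groups of this order overlapped, though p300 and VPRP non-target lay close together. CDH2 was 2.03-fold lower than WT in VPRP sgHBB (log2 -1.02, SE 0.0742, adjusted p = 6.94e-14), 1.78-fold in VPRP non-target (log2 -0.84, adjusted p = 7.75e-12), 1.75-fold in p300 (log2 -0.81, adjusted p = 5.11e-11) and 1.39-fold in p300 D1399Y (log2 -0.47, adjusted p = 4.53e-06). In VPR the log2 value of -0.17 did not pass the test (adjusted p = 0.0862).

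VIM (ENSG00000026025), the intermediate filament of mesenchymal cells, had 61.8 and 62.8 CPM in VPRP sgHBB, 58.5 and 60.4 in VPRP non-target, 99.6 and 93.5 in VPR, 91.3 and 90.0 in p300, 136 and 150 in p300 D1399Y, and 174 and 176 in WT. With either guide, VPRP cells were at the lowest levels. VIM was 2.81-fold lower than WT in VPRP sgHBB (log2 -1.49, SE 0.075, adjusted p = 3.98e-18), 2.94-fold in VPRP non-target (log2 -1.56, adjusted p = 1.22e-18), 1.81-fold in VPR (log2 -0.86, adjusted p = 9.92e-11), 1.93-fold in p300 (log2 -0.95, adjusted p = 1.05e-12) and 1.23-fold in p300 D1399Y (log2 -0.30, adjusted p = 0.00155).

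FN1 (ENSG00000115414), a glycoprotein of the extracellular matrix, had 57.5 and 55.8 CPM in VPRP sgHBB, 46.7 and 55.1 in VPRP non-target, 79.1 and 62.8 in VPR, 58.3 and 70.0 in p300, 57.0 and 52.6 in p300 D1399Y, and 98.1 and 87.7 in WT. All fusion libraries were below both WT libraries, and most neighbouring fusion groups overlapped. FN1 was 1.64-fold lower than WT in VPRP sgHBB (log2 -0.71, SE 0.0991, adjusted p = 1.64e-07), 1.82-fold in VPRP non-target (log2 -0.87, adjusted p = 3.71e-09), 1.45-fold in p300 (log2 -0.53, adjusted p = 3.14e-05) and 1.69-fold in p300 D1399Y (log2 -0.76, adjusted p = 2.84e-07). In VPR it was 1.31-fold lower (log2 -0.39, adjusted p = 0.00344), but the adjusted p was 0.121 with VPR replicate 2 left out and 0.0864 with WT replicate 1 left out (4.99e-05 to 0.121 over all alternatives).

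**Figure D3:**
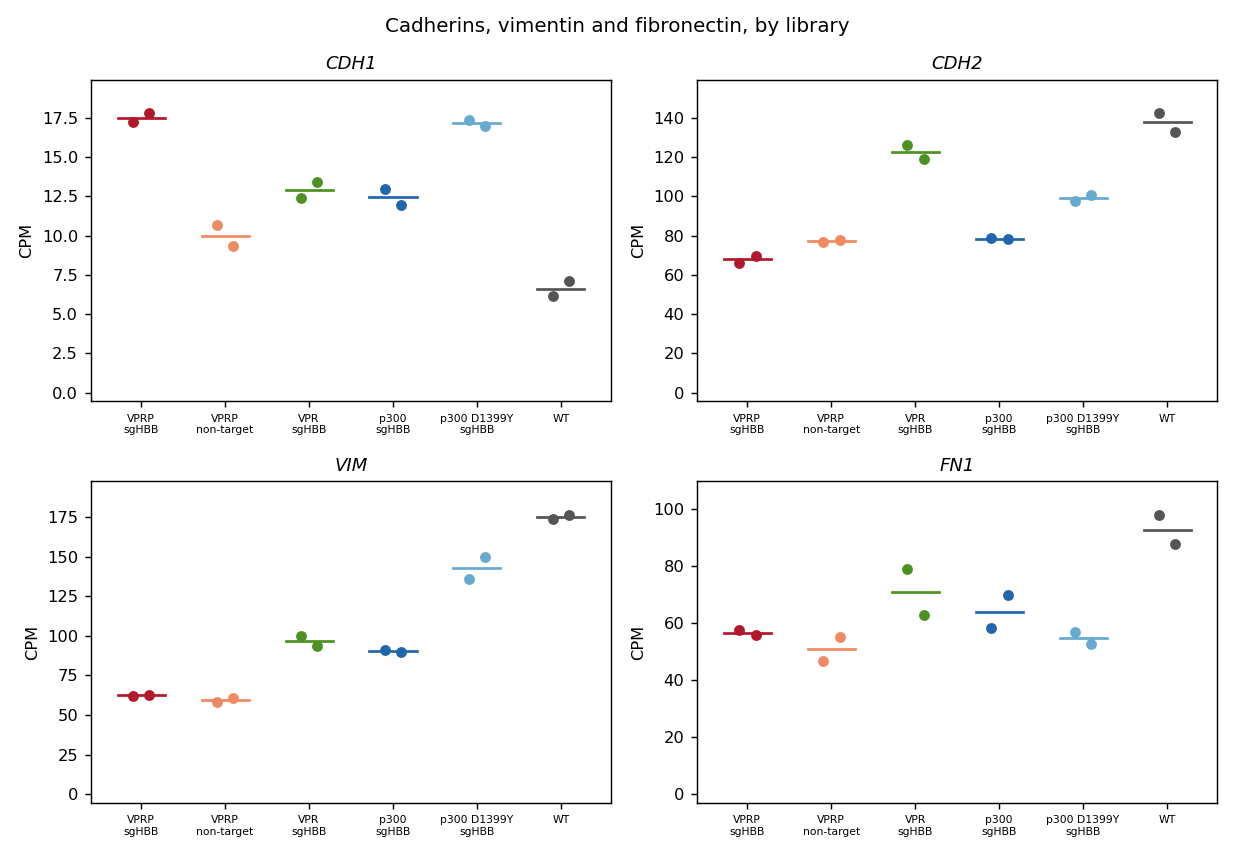
CPM of CDH1, CDH2, VIM and FN1 in each of the 12 libraries (points) with the group mean (line), each panel on its own linear axis. The WT libraries are the lowest for CDH1, at 6.12 and 7.12 CPM, and the highest for CDH2, VIM and FN1.

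The comparison of p300 with p300 D1399Y asked what depended on the acetyltransferase being active. MAGEA10 does not divide this pair, and TWIST2 was at 3.61 and 4.42 CPM in p300, against 4.22 and 4.43 CPM in p300 D1399Y, with overlap. Of the 9 genes 1 was higher and 5 lower in p300, where 30.4% of all genes were called, 15.4% higher and 15% lower. SNAI1 was 4.22-fold higher (log2 2.08, SE 0.241, adjusted p = 3.98e-08), and ZEB2 was 1.79-fold lower (log2 -0.84, SE 0.144, adjusted p = 3.03e-05). VIM was 1.57-fold lower (log2 -0.65, SE 0.0732, adjusted p = 1.99e-08) and CDH2 1.27-fold lower (log2 -0.34, adjusted p = 0.000589). CDH1 (log2 -0.46, adjusted p = 0.00939) and SNAI2 (log2 -0.56, adjusted p = 0.0104) were also lower, but each lost its call when 1 library was left out. For SNAI2 the adjusted p was 0.175 without p300 replicate 2 and 0.149 without p300 D1399Y replicate 2, and for CDH1 it was 0.0911 without p300 replicate 2 and 0.0746 without p300 D1399Y replicate 1. EP300 reads also differed, at 1116 and 1132 CPM in p300 and 195 and 194 CPM in p300 D1399Y, so the substitution and the amount of fusion cannot be told apart.

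VPRP sgHBB was set against VPR sgHBB to see what went with the p300 portion of the fusion. Here 2 of the 9 genes were higher and 6 lower, and 49.8% of all genes were called, 24.7% higher and 25.1% lower. SNAI1 was 24.6-fold higher (log2 4.62, SE 0.214, adjusted p = 8.29e-19). ZEB2 was 2.72-fold lower (log2 -1.44, adjusted p = 1.17e-09), CDH2 1.81-fold (log2 -0.85, adjusted p = 1.43e-11), SNAI2 1.65-fold (log2 -0.72, adjusted p = 0.000149), TWIST1 1.63-fold (log2 -0.70, adjusted p = 9.4e-05) and VIM 1.55-fold (log2 -0.63, adjusted p = 1.8e-08). FN1 was lower (log2 -0.33, adjusted p = 0.00712) and CDH1 higher (log2 0.44, adjusted p = 0.00735). Without VPR replicate 1 both of these calls were lost (adjusted p = 0.259 for FN1 and 0.0634 for CDH1), and FN1 also lost its call without VPRP sgHBB replicate 2 (adjusted p = 0.0511). This comparison crosses the MAGEA10 division, with MAGEA10 at 0.261 and 0.166 CPM in VPRP sgHBB and 24.9 and 27 CPM in VPR.

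VPRP sgHBB against p300 sgHBB asked what went with the VPR portion, in a pair that MAGEA10 does not divide. Of the 9 genes 3 were higher and 3 lower, and 27.9% of all genes were called, 14.3% higher and 13.7% lower. SNAI1 was 4.21-fold higher (log2 2.07, SE 0.153, adjusted p = 1.09e-12) and VIM 1.45-fold lower (log2 -0.54, SE 0.0759, adjusted p = 1.2e-06). The other 4 calls, CDH1 and SNAI2 higher (log2 0.49 and 0.48) and ZEB2 and CDH2 lower (log2 -0.61 and -0.21), were each lost without at least 1 library. The highest adjusted p over all alternatives was 0.0756 for CDH1, 0.321 for SNAI2, 0.185 for ZEB2 and 0.179 for CDH2, so 3 members were called, in place of 6, without VPRP sgHBB replicate 1 or p300 replicate 2. TWIST2 was at 4.11 and 2.93 CPM in VPRP sgHBB, against 3.61 and 4.42 in p300. EP300 reads also differed, at 351 and 398 CPM in VPRP sgHBB and 1116 and 1132 CPM in p300. The VPR portion and the amount of fusion therefore cannot be told apart.

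The same fusion with the HBB guide and with the non-target guide gave different levels of several members. In VPRP sgHBB against VPRP non-target, 2 of the 9 genes were higher and 2 lower, and 29.3% of all genes were called, 14.9% higher and 14.4% lower. SNAI1 was 1.92-fold lower (log2 -0.94, SE 0.125, adjusted p = 3.97e-07), SNAI2 2.06-fold lower (log2 -1.04, SE 0.145, adjusted p = 1.06e-06) and CDH1 1.75-fold higher (log2 0.81, SE 0.138, adjusted p = 2.54e-05). ZEB1 was higher by log2 0.30 (adjusted p = 0.0458), a call lost in 8 of 19 alternatives (adjusted p from 0.034 to 0.235 over all of them), among them each single library of either group left out. VIM had 61.8 and 62.8 CPM in VPRP sgHBB and 58.5 and 60.4 in VPRP non-target (log2 0.07, SE 0.0776, adjusted p = 0.559). EP300 stood at 351 and 398 CPM with the HBB guide and 1165 and 1179 CPM with the non-target guide, and the comparison also crosses the MAGEA10 division, so the guide, the amount of fusion and that division cannot be told apart.

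**Figure D4:**
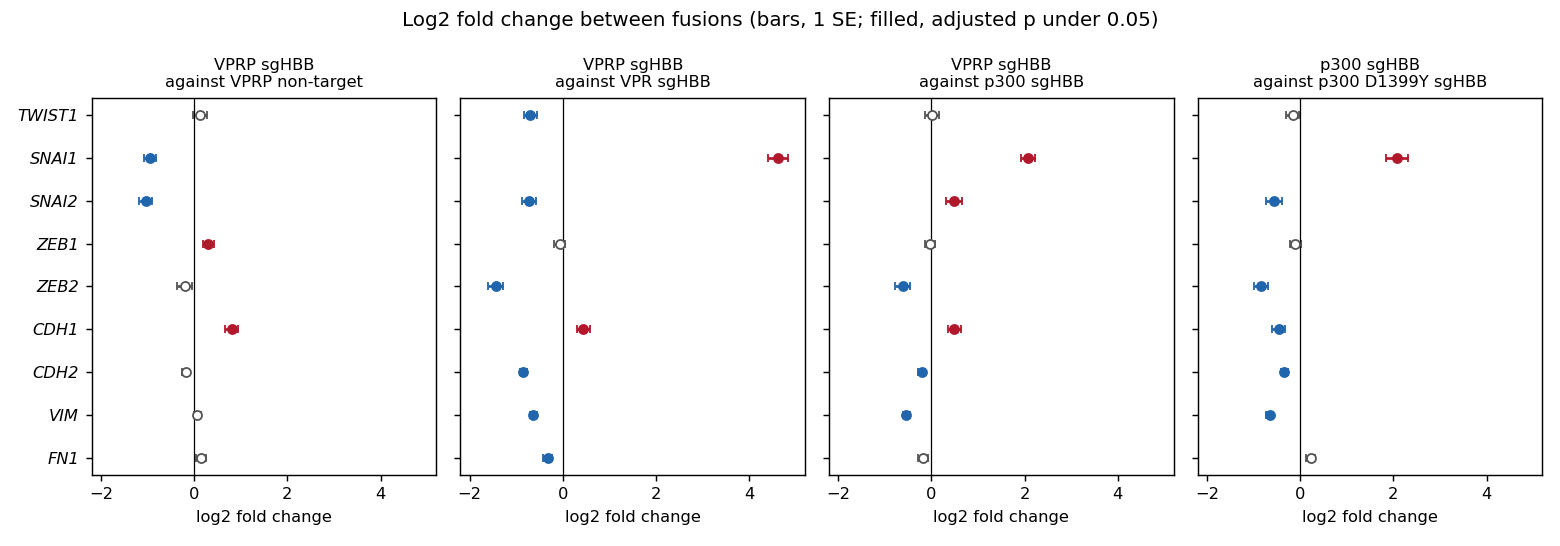
Log2 fold change of the 9 tested genes in 4 comparisons between fusion groups, with bars of 1 SE; filled red points were called higher, filled blue points lower, and open points were not called. SNAI1 lies right of 0 in 3 panels and left of 0, at -0.94, for VPRP sgHBB against VPRP non-target.

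Whether the VPR portion acted alike with and without p300 was tested as an interaction, VPRP sgHBB over p300 minus VPR over WT on the log2 scale. Of the 9 genes 3 were higher and 0 lower, and 15.2% of all genes were called, 6.68% higher and 8.53% lower. SNAI2 had the firmest value, 1.83 (SE 0.213, adjusted p = 2.69e-07): it was 2.55-fold lower with VPR than in WT but 1.40-fold higher with VPRP sgHBB than with p300. For SNAI1 the value was 1.81 (SE 0.446, adjusted p = 0.00491) and for VIM 0.32 (SE 0.105, adjusted p = 0.0368). SNAI1 lost its call without WT replicate 1 (log2 1.51, adjusted p = 0.105), and VIM without WT replicate 1 (adjusted p = 0.0884) and several other libraries (highest adjusted p 0.117), so without WT replicate 1 only SNAI2 of the 9 was called. VPR and WT lie on one side of the MAGEA10 division and VPRP sgHBB and p300 on the other, and the interaction cannot be told apart from it. EP300 reads also differed, at 351 and 398 CPM in VPRP sgHBB and 1116 and 1132 CPM in p300. The interaction cannot be told apart from the amount of fusion either. VPR cells also differed from WT in having a dCas9 fusion and in the sort, and the guide of WT is not named. In that pair the VPR portion cannot be told apart from these.

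Other genes of the transition were read as lists that do not hold the 10 genes. Of 30 mesenchymal markers 25 were tested, and in VPRP sgHBB against WT 16 were higher and 4 lower, with a median log2 fold change of 1.07, beside 31.1% higher and 28% lower over all genes. SPARC, which binds collagen in the matrix, was 15.0-fold higher (log2 3.90, SE 0.318, adjusted p = 1.2e-12), COL1A1, a chain of collagen I, 4.92-fold (log2 2.30, SE 0.119, adjusted p = 8.55e-18) and S100A4, a calcium-binding protein, 3.26-fold (log2 1.71, adjusted p = 1.23e-05). TNC, the matrix protein tenascin C, was 4.12-fold lower (log2 -2.04, SE 0.386, adjusted p = 2.75e-05). So 16 of these markers rose while CDH2, VIM and FN1, the markers among the 10 genes, fell in the same libraries. In the other groups against WT the mesenchymal counts were 11 higher and 7 lower in VPRP non-target (31.2% and 28.5% over all genes), 7 and 1 in VPR (13.8% and 11.5%), 11 and 5 in p300 (24.5% and 21.6%) and 9 and 1 in p300 D1399Y (15.7% and 14.5%), with medians of 0.44, 0.39, 0.31 and 0.29. Without VPR replicate 2 the VPR count was 5 in place of 8.

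SPARC and COL1A1 differed in their order over the groups. SPARC had 10.1 and 8.89 CPM in VPRP sgHBB, 2.19 and 1.88 in VPRP non-target, 1.33 and 2.46 in VPR, 2.33 and 3.12 in p300, 7.22 and 7.47 in p300 D1399Y, and 0.605 and 0.647 in WT. COL1A1 had 58.8 and 61.0 CPM in VPRP sgHBB, 39.9 and 38.2 in VPRP non-target, 24.4 and 18.6 in VPR, 28.6 and 27.4 in p300, 37.9 and 32.4 in p300 D1399Y, and 13.2 and 11.1 in WT. Both were lowest in WT and highest in VPRP sgHBB, with no library of another group reaching the VPRP sgHBB values.

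Of 24 epithelial markers 21 were tested, with 6 higher and 1 lower in VPRP sgHBB against WT and a median log2 fold change of 0.05, beside 31.1% higher and 28% lower over all genes. The share higher was near that of genes in general, while the share lower was below it. TJP3, a tight junction protein, was 7.37-fold higher (log2 2.88, SE 0.285, adjusted p = 1.3e-10), KRT8, a keratin of simple epithelia, 2.51-fold (log2 1.33, adjusted p = 1.78e-14) and CDH3, encoding P-cadherin, 2.0-fold (log2 1.0, adjusted p = 0.00432). DSP, the desmosomal protein desmoplakin, was 2.32-fold lower (log2 -1.21, adjusted p = 7.75e-16). The counts were 8 higher and 3 lower in VPRP non-target (31.2% and 28.5% over all genes), 8 and 1 in VPR (13.8% and 11.5%), 5 and 1 in p300 (24.5% and 21.6%) and 8 and 1 in p300 D1399Y (15.7% and 14.5%), with medians of 0.21, 0.29, 0.23 and 0.77. Those of VPR, p300 and p300 D1399Y rest on single libraries: for VPR the number called was 3 with WT replicate 1 left out and 5 with WT replicate 2 or either VPR library left out, and it was 3 without p300 replicate 2 in p300 and 4 without p300 D1399Y replicate 1 in p300 D1399Y. In p300 against p300 D1399Y no epithelial marker was higher and 7 were lower, with 2 mesenchymal markers higher and 7 lower, beside 15.4% higher and 15% lower over all genes.

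**Figure D5:**
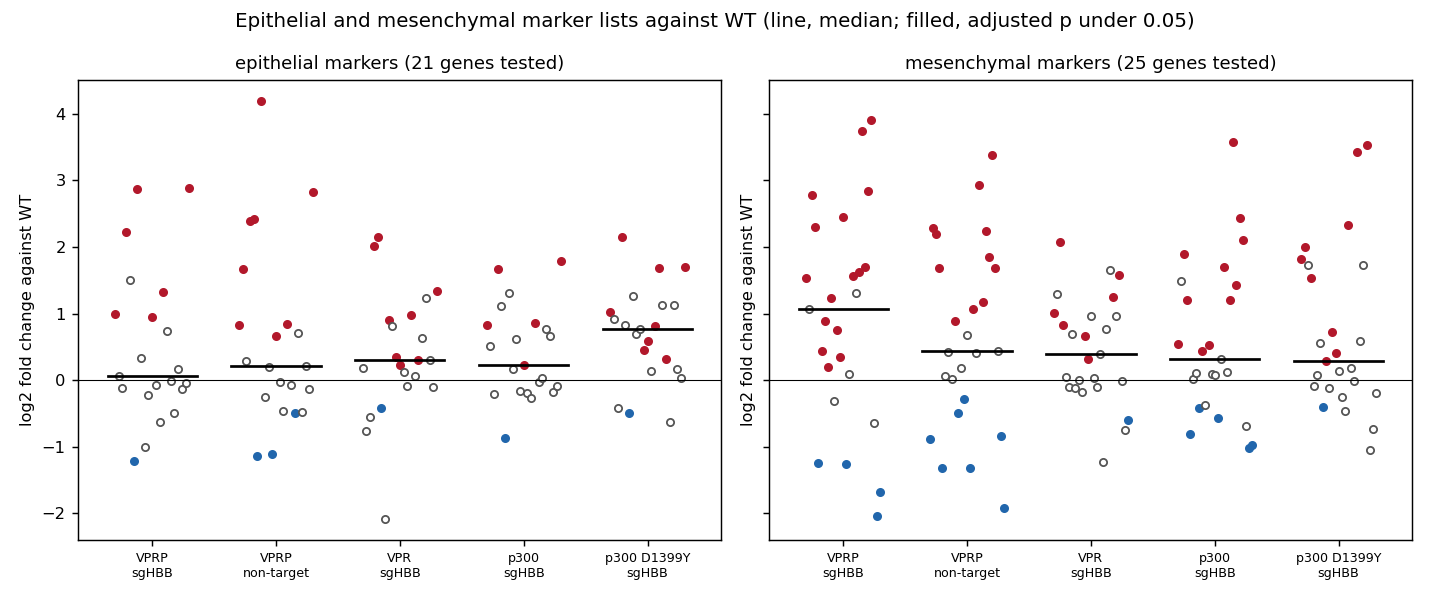
Log2 fold change against WT of the 21 tested epithelial markers (left) and the 25 tested mesenchymal markers (right) in the 5 fusion groups, with each list's median as a line. Filled red points were called higher, filled blue points lower and open points were not called; the median of the mesenchymal list is highest in VPRP sgHBB, at 1.07, and that of the epithelial list in p300 D1399Y, at 0.77.

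Among 12 tested transcription factors of the transition outside the 10 genes, 2 were higher and 7 lower in VPRP sgHBB against WT, with a median log2 fold change of -0.55, where 31.1% of all genes were higher and 28% lower. FOXC1, a forkhead factor, was 3.58-fold lower (log2 -1.84, SE 0.0738, adjusted p = 7.69e-21), PRRX1, a homeobox factor of mesenchyme, 2.96-fold (log2 -1.56, adjusted p = 1.36e-06) and LEF1, which acts with beta-catenin, 2.75-fold (log2 -1.46, adjusted p = 4.87e-14). SNAI3, the third Snail family gene, was 3.48-fold higher (log2 1.80, adjusted p = 1.27e-06). Against WT the counts were 4 higher and 6 lower in VPRP non-target (31.2% and 28.5% of all genes), 0 and 4 in VPR (13.8% and 11.5%), 3 and 7 in p300 (24.5% and 21.6%) and 1 and 4 in p300 D1399Y (15.7% and 14.5%).

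TWIST proteins bind DNA as dimers with E proteins, and ID proteins bind E proteins and keep them off DNA. Of 9 such genes tested, 4 were higher and 4 lower in VPRP sgHBB against WT, where 59.1% of all genes were called (31.1% higher and 28% lower). The E proteins fell together: TCF3 was 1.56-fold lower (log2 -0.64, SE 0.0747, adjusted p = 4.8e-09), TCF12 1.54-fold (log2 -0.63, adjusted p = 1.23e-06) and TCF4 1.38-fold (log2 -0.47, adjusted p = 0.000628). ID1 was 2.58-fold higher (log2 1.37, adjusted p = 1.65e-07) and ID3 2.26-fold higher (log2 1.18, adjusted p = 1.68e-11). The related factors HAND2 and HAND1 went opposite ways, HAND2 2.77-fold higher (log2 1.47, adjusted p = 0.000169) and HAND1 2.38-fold lower (log2 -1.25, adjusted p = 5.05e-09). In p300 D1399Y, where TWIST2 was also detected, TCF3 was lower by log2 -0.21 (adjusted p = 0.0302), while TCF12 (log2 -0.14, adjusted p = 0.278) and TCF4 (log2 -0.02, adjusted p = 0.928) did not pass the test. In VPRP non-target, with 1 TWIST2 count in all, TCF12 (log2 -0.89, adjusted p = 1.47e-09) and TCF3 (log2 -0.47, adjusted p = 1.63e-06) were lower. TCF4 did not pass there (log2 -0.24, adjusted p = 0.0568). In VPR, without TWIST2 reads, only TCF12 was lower (log2 -0.33, adjusted p = 0.011).

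TGF-beta is a main inducer of the transition, and of 16 genes of its signalling 1 was higher and 8 lower in VPRP sgHBB against WT, with a median log2 fold change of -0.23, where 31.1% of all genes were higher and 28% lower. The share called was thus near that of all genes (59.1%), but a larger share was lower and a smaller share higher than among all genes. The inhibitory SMAD7 was 1.99-fold lower (log2 -1.0, SE 0.17, adjusted p = 5.8e-06) and SMAD6 1.67-fold lower (log2 -0.74, adjusted p = 8.72e-06). SMAD3, which carries the signal to DNA, was 1.84-fold lower (log2 -0.88, adjusted p = 2.2e-09), and LTBP1, which stores latent TGF-beta in the matrix, 1.92-fold lower (log2 -0.94, adjusted p = 1.17e-11). Of 17 tested corepressors and genes that control the turnover of Snail and its relatives, 8 were higher and 4 lower, beside the same 31.1% and 28%. EED, a Polycomb subunit, and GSK3B, the kinase that marks Snail for breakdown, were 1.53-fold and 1.52-fold higher (adjusted p = 2.87e-06 and 4.32e-08), while CTBP1 and CTBP2, corepressors of ZEB proteins, were 1.5-fold and 1.38-fold lower (adjusted p = 7.48e-09 and 4.53e-06).

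Of 12 tested catenins and other cadherins 7 were higher and 1 lower in VPRP sgHBB against WT, with a median log2 fold change of 0.67, beside 31.1% higher and 28% lower among all genes (59.1% called). CDH15, the muscle cadherin, was 44.2-fold higher (log2 5.47, SE 0.361, adjusted p = 5.98e-15), from 9 counts over the WT group, and CDH24, a classical cadherin, 2.16-fold higher (log2 1.11, adjusted p = 4.62e-09). CTNNB1, encoding beta-catenin, was 1.6-fold higher (log2 0.68, adjusted p = 2.77e-10) and JUP, encoding plakoglobin, 1.94-fold (log2 0.95, adjusted p = 2.23e-12), whereas PKP4, a plakophilin, was 1.69-fold lower (log2 -0.76, adjusted p = 9.08e-10). CTNNB1 was also higher in the other 4 fusion groups, by log2 0.48 to 0.61.

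Of 14 tested fibronectin receptors and intermediate filament genes 10 were higher and 3 lower in VPRP sgHBB against WT, with a median log2 fold change of 0.79, beside 31.1% and 28% of all genes. While VIM fell, 6 of the 7 other intermediate filament genes tested in this list rose and 1, NEFM, fell 2.13-fold. NES, encoding nestin, was 10.9-fold higher (log2 3.44, SE 0.17, adjusted p = 2.5e-18), PRPH, encoding peripherin, 14.3-fold (log2 3.84, adjusted p = 3.43e-09) and SYNM, encoding synemin, 2.89-fold (log2 1.53, adjusted p = 1.85e-08). INA rose 1.77-fold and GFAP, chosen after its value was seen, 2.76-fold (adjusted p = 0.00395). DES, encoding the muscle protein desmin, had 5.54 and 5.03 CPM in VPRP sgHBB against 0.0672 and 0.129 in WT, which had 3 counts in all. ITGA5 and ITGB1, the subunits of the main fibronectin receptor, were 1.69-fold (adjusted p = 1.34e-07) and 1.17-fold (adjusted p = 0.0119) higher.

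Markers of cell types were read beside these lists, and their part in the results was not tested. All 6 kidney and neuronal markers of HEK293 that were in the table had reads in every group; 2 were higher and 3 lower in VPRP sgHBB than in WT (31.1% and 28% of all genes), and their summed level was 153 to 154 CPM in VPRP sgHBB and 235 to 245 CPM in WT. NEFM, a neurofilament gene, was 2.13-fold lower and SIX2, a factor of kidney progenitors, 2.58-fold lower, while INA, another neuronal filament gene, was 1.77-fold higher (adjusted p = 1.19e-08). The 8 fibroblast markers summed to 64.6 to 68.0 CPM in VPRP sgHBB and 17.2 to 19.4 CPM in WT, most of it COL1A1, which is also on the mesenchymal list; of 5 tested, 3 were higher and 1 lower. COL3A1 was 2.37-fold lower than in WT (log2 -1.25, adjusted p = 0.000538), and PDGFRB averaged 1.42 CPM in VPRP sgHBB against 0.0996 CPM in WT. COL1A2 and THY1 were near 0 in VPRP sgHBB, at 0.246 and 0.0652 CPM on average, and DCN was at 0 in WT. The 4 endothelial markers summed to 26.6 to 27 CPM in VPRP sgHBB and 0.259 to 0.269 CPM in WT, and nearly all of it was KDR, a VEGF receptor, at 25.3 and 25.7 CPM, against 0.202 and 0.129 CPM in WT. CDH5 averaged 0.339 CPM in VPRP sgHBB and was at 0 in WT, and both endothelial markers that were tested were higher. Of the leukocyte markers, PTPRC, the pan-leukocyte phosphatase, averaged 0.0276 CPM in VPRP sgHBB and had no reads in WT. PTPRC does not stand for its list, in which other markers were called higher in VPRP sgHBB than in WT.

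The genes whose log2 CPM followed that of each member most closely over the 12 libraries are given as a description. The libraries are 6 pairs, so such likeness rests on few independent points. For TWIST2 they were SLC6A11, a GABA transporter (Pearson r = 0.986), KIF1A, a kinesin of axonal transport (r = 0.981), TPP2, a peptidase (r = 0.980), MAPK13, a p38 kinase (r = 0.978), and HBS1L, a ribosome rescue factor (r = 0.978). SLC6A11 had 9.59 and 9.61 CPM in VPRP sgHBB, 11.3 and 12.9 in p300 and 14.7 and 13 in p300 D1399Y, and it had 3.04 and 3.38 in VPRP non-target, 3.36 and 3.01 in VPR and 2.89 and 3.04 in WT. KIF1A had 213 and 206 CPM in VPRP sgHBB, 202 and 215 in p300 and 204 and 187 in p300 D1399Y, and it had 80.2 and 79.1 in VPRP non-target, 99.9 and 91.1 in VPR and 86.0 and 85.2 in WT. Like TWIST2, both split the same 6 libraries from the other 6, but unlike TWIST2 they had reads throughout. Both were picked for their likeness to TWIST2, so the shared split follows from that choice.

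For SNAI1 the closest genes were HAP1, which encodes a partner of huntingtin (r = 0.993), and FRG2 (r = 0.993), a gene with near-identical copies whose reads may be divided among them. HAP1 had 57.9 and 57.3 CPM in VPRP sgHBB, 87.6 and 85.3 in VPRP non-target, 7.41 and 7.12 in VPR, 19.3 and 18.4 in p300, 9.30 and 7.61 in p300 D1399Y, and 5.71 and 5.18 in WT. HAP1 therefore had its highest level in VPRP non-target, as SNAI1 did, and it was picked for such likeness. For the other members the first gene was GATA4 for SNAI2 (r = 0.950), HMGA2 for ZEB2 (r = 0.977), ATRX for ZEB1 (r = 0.956), NDFIP1 for TWIST1 (r = 0.923), HSPA4L for CDH1 (r = 0.979), YBX3 for CDH2 (r = 0.988), CPSF7 for VIM (r = 0.996) and TOM1 for FN1 (r = 0.945). The second was HDAC5 for SNAI2 (r = 0.946), ZC3HAV1L for ZEB2 (r = 0.976), DLG5 for ZEB1 (r = 0.955), PHF21A for TWIST1 (r = 0.913), CDKN1A for CDH1 (r = 0.969), WDR18 for CDH2 (r = 0.987), ACTMAP for VIM (r = 0.989) and SHMT2 for FN1 (r = 0.938).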

How the data were processed

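RNA was sequenced in 12 libraries, 2 in each of 6 groups. A further 10 samples of H3K27ac ChIP-seq were not analysed here, and the labels of 2 of them conflict. The authors deposited raw read counts per gene as whole numbers, for 48162 IDs. The submitters' processing notes name STAR 2.5, HTSeq 0.6.1, DESeq2 1.24.0, BWA, deepTools and hg19, without roles; annotation release and strand setting: not given in the sources used here. A gene name table gave symbols to 33626 IDs, and 0.766% to 0.896% of counts fell on the 14536 unnamed IDs. Columns were assigned to samples by name.

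The filter was filterByExpr with a minimum count of 10 and a minimum total of 15. TMM factors were used in edgeR 4.0.16 (limma 3.58.1, R 4.3.3), in a model of 6 group means over all 12 libraries. The quasi-likelihood test gave the p-values of 10 comparisons, which were adjusted by the Benjamini-Hochberg method over the 16694 genes tested and called at 0.05. The SE is the log2 fold change over the square root of F. CPM use TMM-scaled library sizes. A count of 0 allows up to 3 counts, and folds against 0 are lower limits set at that floor over a whole group. Such limits, like the intervals, reflect counting error alone, since the reads had no molecular identifiers. The limits take in that error for the group at 0 only. Replicate libraries varied 2.87 to 13.7 times the Poisson variance.

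The 10 genes, the 12 gene lists and the rules were chosen with earlier results of these data known. Of 153 list genes, 149 were in the table; USP27X, NEFL, LHX1 and PECAM1 were not analysed here. Named from each list were up to 4 genes with the largest change in VPRP sgHBB against WT among those called with a mean log2 CPM of at least 1, plus TCF3, TCF4, TCF12, CTNNB1, ITGA5 and ITGB1 as partners. Of the genes most like each member, 5 were named for TWIST2 and 2 for the others. CDH5, COL1A2, THY1, DCN and PTPRC, outside these rules, were named as defining markers near 0 after their values were seen. PDGFRB was also named outside these rules after its values were seen. Lists are described by counts and medians only. For the leukocyte list, 1 gene and the count and sum that include it are not reported here. Results were recomputed with DESeq2 1.42.0, with RLE or upper-quartile scaling, without the filter, with 1 CPM in at least 2 libraries required, from only the groups compared, with a replicate block and with each library left out. The steps were tested on simulated data. Plots were made with matplotlib 3.10.9 (Python 3.11.15).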

Additional observations from a re-analysis of the deposited data

Results flagged for a closer look

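For 3 of the 9 tested genes (15.2% of all genes were called, 6.68% higher and 8.53% lower) VPRP sgHBB over p300 differed from VPR over WT, by edgeR's quasi-likelihood test of the interaction. The difference was 1.81 on the log2 scale for SNAI1 (adjusted p = 0.00491), 1.83 for SNAI2 (adjusted p = 2.69e-07) and 0.32 for VIM (adjusted p = 0.0368). SNAI1 was 4.21-fold higher in VPRP sgHBB than in p300, and was not called in VPR against WT. VIM was 1.45-fold lower in VPRP sgHBB than in p300 and 1.81-fold lower in VPR than in WT. SNAI2 was 1.40-fold higher in VPRP sgHBB than in p300 (a call lost without either VPRP sgHBB library or p300 replicate 2) and 2.55-fold lower in VPR than in WT. Of these 3, SNAI2 alone was called without each of the 12 libraries in turn; the value for SNAI1 was 1.51 (adjusted p = 0.105) without WT replicate 1. VPRP sgHBB and p300 lie on one side of the MAGEA10 division and VPR and WT on the other, so the interaction spans it, and its part was not tested. EP300 reads also differed between VPRP sgHBB (351 and 398 CPM) and p300 (1116 and 1132 CPM), and the part of this difference was not tested. VPR cells differed from WT in having a dCas9 fusion and in the sort, and the guide of WT is not named. The VPR portion cannot be told apart from these in that pair.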

How the results depend on the processing

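Of 90 fold changes of the 9 tested genes 61 were called, and 48 of these kept their call under every alternative; 13 lost it without at least 1 library, 3 of them also in another setting, and none turned sign. Of 29 not called, 6 gained a call in some alternative, and 8 turned sign with 1 library left out. Those 8 ranged from -0.14 to 0.035 (ZEB1, p300 D1399Y against WT), from -0.61 to 0.10 (ZEB2, VPRP sgHBB against VPRP non-target), from -0.069 to 0.37 (TWIST1, same comparison), from -0.10 to 0.12 (TWIST1, VPRP sgHBB against p300), from -0.11 to 0.026 (ZEB1, same comparison), from -0.30 to 0.015 (TWIST1, p300 against p300 D1399Y), and in the interaction from -0.0003 to 0.18 (ZEB1) and from -0.093 to 0.0046 (CDH2). The cause was not tested.

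With 1 library left out, all genes called ranged from 2548 to 4367 for VPR against WT (4220 with all libraries), 3185 to 5438 for VPRP sgHBB against VPRP non-target (4898), 3089 to 5227 for VPRP sgHBB against p300 (4660), 3193 to 5623 for p300 against p300 D1399Y (5076) and 1427 to 3278 for the interaction (2539). Members called ranged from 3 to 6 for VPRP sgHBB against p300 and 1 to 4 for the interaction. Against WT, epithelial markers called ranged from 3 to 9 (VPR), 3 to 6 (p300) and 4 to 10 (p300 D1399Y), and mesenchymal markers from 5 to 12 (VPR). DESeq2 called 5 epithelial markers in VPR against WT, against 9 by edgeR; list counts were added as a result after seeing the data. Samples with the same replicate number did not vary together (correlations of -0.041 to 0.066 over 15 pairs of groups), and with a replicate block 1 of the 61 calls was lost, ZEB1 in VPRP sgHBB against VPRP non-target (adjusted p = 0.0519).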
